A study of Mus musculus with 16 samples.

Results

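The 6 control libraries of a mouse thymus RNA-seq series of 16 libraries are described here, each made from the live CD4+CD8+ double-positive thymocytes of 1 mouse. The 6 were chosen by their titles, which name the strain NOD-AI4 and no change of genotype, a rule that uses no measured value. They came from 3 males (replicates 1 to 3) and 3 females (replicates 4 to 6) aged 6 to 7 weeks, none with a further treatment in the labels. NOD is a strain that develops autoimmune diabetes, and all 6 mice carried the rearranged T cell receptor (TCR) transgene of the CD8 T cell clone AI4, which is autoreactive, so the receptor repertoire is not that of an ordinary thymus. The labels do not name the promoter of the transgene. Cells were sorted by flow cytometry, and replicates are separate mice by their identifiers.

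A double-positive thymocyte carries both co-receptors, CD4 and CD8, and is the stage at which most cells of the thymus are found. Here the cell normally rearranges its TCR alpha genes with the RAG recombinase, tests the finished receptor against self peptides, and either dies or goes on to become a CD4 or CD8 single-positive cell. Reported levels are deposited TPM values (a transcript level per length, scaled to 1000000 in each library), so that genes can be ordered within a library. A gene is called detected at 1 TPM or more, and a value after ± is the SD over the 6 mice.

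Library totals were 17955743 to 26586220 expected counts (estimated reads per gene, which need not be whole numbers). The males held 25052921 to 26586220 and the females 17955743 to 18888169, so sex and depth cannot be told apart in these libraries. Of the 6, 3 libraries stand apart, with replicate 1 high in haemoglobin and MHC class II genes, replicate 2 high in type I interferon response genes, and replicate 6 low in double-positive stage genes with 3.72% of its TPM in ribosomal RNA against 0.692% to 2.09% in the others. Genes for which 1 of these libraries sets much of the spread are given by library or with and without it.

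Of the 46517 listed genes, 12369 were at 1 TPM or more in every library (10233 of them protein-coding), 3104 in some and 31044 in none. A mean of 100 TPM or more was reached by 1807 genes and one of 1000 TPM or more by 135. Between 435 and 545 genes held 50% of the TPM of a library. The 15 highest means included TCR segments and constant regions (Trbc2 at 14657, Trbv1 at 10789 and Trbc1 at 4843 TPM), the ribosomal RNA gene CT010467.1, the small RNAs Gm26377 and Scarna17, and the pseudogenes Gm3788, Gm11966, Gm42845, Gm28661 and Gm10925. The 4 protein-coding genes among the 15 were Eef1a1 (translation elongation, 6847 TPM), mt-Co1 (respiratory chain, 5995 TPM), Actb (actin, 5269 TPM) and Tmsb10 (actin binding, 4241 TPM). Very short genes reach high TPM from few reads: Scarna17 averaged 105 expected counts, and 1 count of it in replicate 1 was worth 61.6 TPM. Small RNA genes together held 8.03% to 8.45% of TPM but 0.0398% to 0.0538% of counts. Pseudogenes copied from abundant genes share reads with them, and their levels are uncertain.

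**Figure D1:**
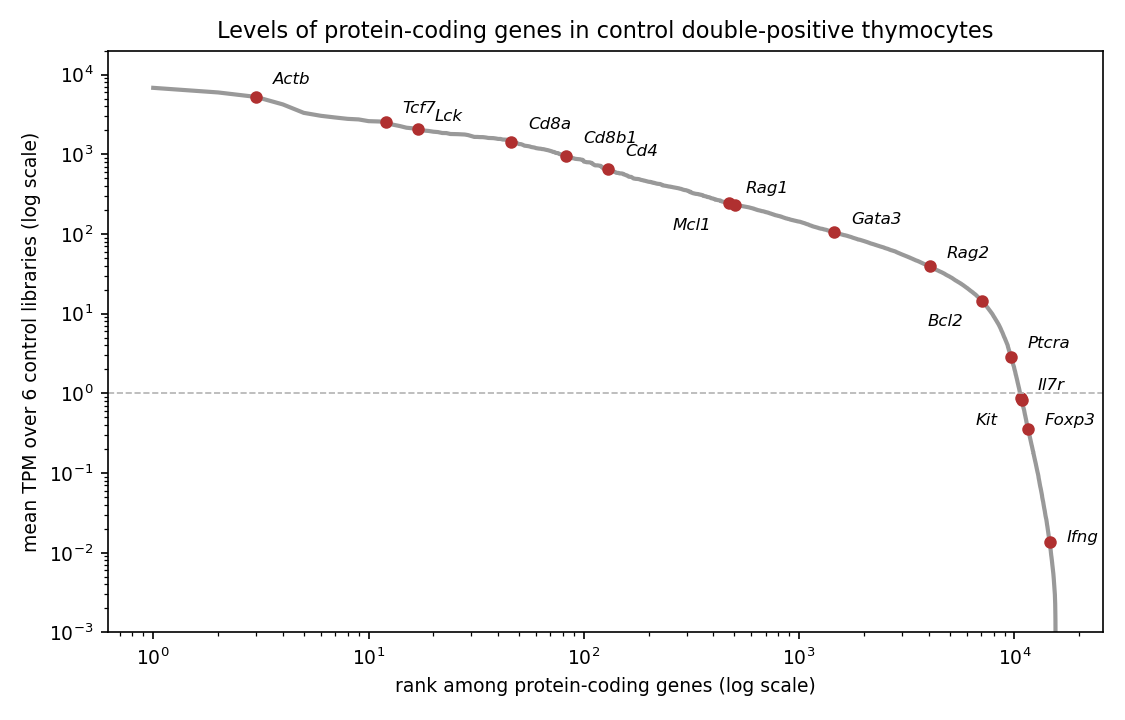
Mean TPM over the 6 control libraries (vertical, log scale) of each protein-coding gene against its rank among protein-coding genes (horizontal, log scale), as a grey line with named genes as red points and a dashed line at 1 TPM. Tcf7 and Lck stand at ranks 12 and 17, Cd8a, Cd8b1 and Cd4 at 46, 83 and 130 and Rag1 at 474, while Kit, Il7r, Foxp3 and Ifng have means below the dashed line.

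The co-receptor genes were among the most abundant messages. Cd8a (chr6:71373427-71379173, GRCm38), which encodes the alpha chain of CD8, had 1391, 1635, 1451, 1565, 1582 and 1026 TPM in replicates 1 to 6, a mean of 1442 ± 223 and rank 84. Cd8b1 (chr6:71322788-71337494), the beta chain, had 956, 1093, 1010.5, 1058, 969 and 671 TPM, a mean of 959.6 ± 151 and rank 141. Cd4 (chr6:124864692-124888221) had 607, 686, 648, 759, 771 and 465 TPM, a mean of 656 ± 113 and rank 211. All 3 were therefore high in every library, with the lowest value of each in replicate 6. Within a library Cd8b1 was 0.613 to 0.696 times Cd8a, and Cd4 was 0.420 to 0.488 times Cd8a, so the order of the 3 genes was the same in 6 of 6 libraries.

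Recombination genes were expressed beside the co-receptors. Rag1 (chr2:101638282-101649501), a subunit of the recombinase, had 208, 284, 287, 291, 269.7 and 117 TPM in replicates 1 to 6, a mean of 243 ± 68.97 and rank 635. Rag2, the other subunit, had 34.6, 46.9, 46.7, 47.6, 43.6 and 15.9 TPM, and Rag1 was 6.03 to 7.35 times Rag2. Replicate 6 was the lowest for both, and replicate 1 the next. Dntt, the terminal transferase that adds bases at the joints, had 593, 682, 677, 699, 706 and 388 TPM, again lowest in replicate 6. Other repair genes that close the joints were present at lower levels, among them Xrcc6 at 172, Lig4 at 70.2, Dclre1c (Artemis) at 55.8, Xrcc4 at 34.5 and Prkdc at 15.4 TPM. All 13 genes of the recombination and repair list were detected in every library, as were 47.5% of all protein-coding genes.

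The low values of replicate 6 were shared by these genes. Against the mean of the other 5 libraries it was lower by 33.01% for Cd4, 32.7% for Cd8a, 34.1% for Cd8b1, 56.5% for Rag1, 63.8% for Rag2 and 42.2% for Dntt. Without it the means were 694 ± 70.7 TPM for Cd4, 1525 ± 100.3 for Cd8a, 1017 ± 58.3 for Cd8b1, 268 ± 34.3 for Rag1, 43.9 ± 5.42 for Rag2 and 671 ± 45.2 for Dntt. The SD of Cd8a was thus 223 TPM with that library and 100.3 TPM without it. In bulk RNA, fewer cells of a type and less RNA per cell cannot be told apart.

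The double-positive stage list held 30 genes, of which 26 were detected in every library, 18 had a mean of 100 TPM or more, and the median of the means was 222 TPM. Detection in every library was reached by 26.6% of all 46517 listed genes and by 47.5% of the 21547 protein-coding ones, shares that also stand behind the list counts that follow. Over all genes, 13995 had a mean of 1 TPM or more and 1807 of 100 TPM or more. Satb1, a chromatin organiser of this stage, had 1319 at the lowest, 1333 at the median and 1419 TPM at the highest, and Ccr9, the receptor for the thymic chemokine CCL25, had 1073 at the lowest, 1103 at the median and 1201 TPM at the highest. Themis, needed for positive selection, had 389 at the lowest, 475 at the median and 519.7 TPM at the highest, and Arpp21 had 121 at the lowest, 196 at the median and 208 TPM at the highest. Ptcra, the surrogate alpha chain of the pre-TCR used at the stage before, had only 2.96, 2.30, 3.17, 2.86, 1.83 and 4.25 TPM, at rank 11698. The 2 list members under 1 TPM in every library were Tdgf1 (0.290 TPM) and Mpp4 (0.516 TPM). Of the 18 members at 100 TPM or more, 16 were lowest in replicate 6, as were 39.8% of the 1504 protein-coding genes outside X and Y at that level with 100 counts or more (41.6% of the 7605 at 10 TPM or more).

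**Figure D2:**
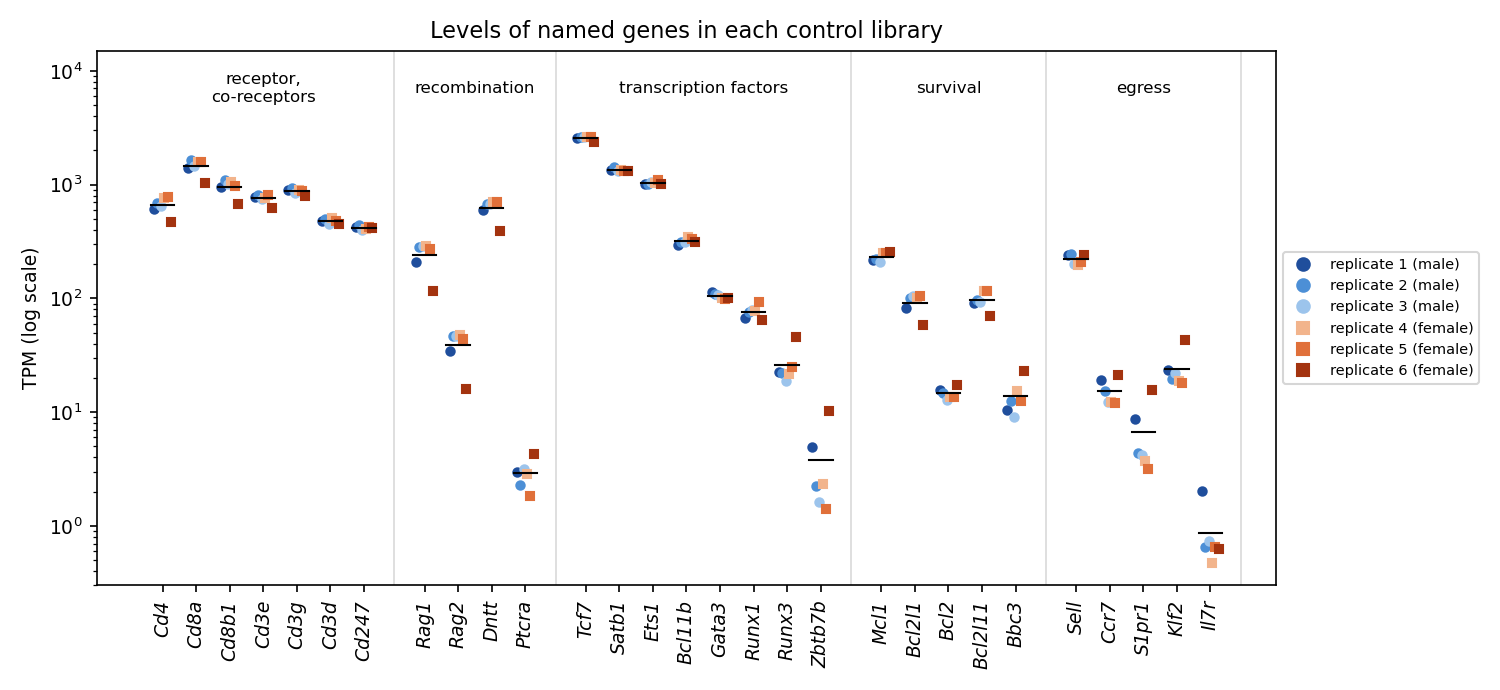
TPM (vertical, log scale) of named genes grouped by role, with 1 point per control library coloured by replicate (circles for males, squares for females) and a bar at the mean. Replicate 6 holds the lowest point of Cd4, Cd8a, Cd8b1, Rag1 (117 TPM), Rag2 and Dntt and the highest of Runx3, Zbtb7b, S1pr1 and Klf2 (42.8 TPM).

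All 29 genes of the TCR complex and proximal signalling list were detected in every library, 26 had a mean of 100 TPM or more, and their median CV (SD divided by mean) was 6.92%. Among the CD3 chains, which carry the receptor's signal, Cd3g had 875 ± 46.8, Cd3e 756 ± 66.8, Cd3d 476 ± 26.8 and Cd247 418 ± 12.7 TPM. Cd3e was lowest in replicate 6 and had 781 ± 24.98 TPM without it, and Cd247 had 414 ± 8.25 TPM without replicate 2. Cd3g was 1.08 to 1.28 times Cd3e and Cd3d 0.587 to 0.712 times Cd3e. The kinase gene Lck had 2091 ± 156 TPM (rank 39) and was 10.5 to 15.6 times the related Fyn at 149.9 ± 18.9 TPM, which was highest in replicate 6 and had 142 ± 5.71 TPM without it. Downstream of Lck, the kinase Zap70 had 217 ± 13.2 TPM, the adaptors Lat and Lcp2 (SLP-76) 690.2 ± 30.6 and 299 ± 10.6 TPM, and Cd5, a brake on TCR signalling, 344 ± 16.3 TPM. The lowest member was Cblb, a ubiquitin ligase, at 15.04 ± 0.350 TPM. Its 6 values, 14.5 to 15.4 TPM, lay within a narrow range.

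Receptor segment use followed a single V gene for each chain. Trbv1 (chr6:40891229-40891885), the segment known by its older name as Vbeta2, held 98.26, 98.85, 98.25, 98.60, 98.49 and 96.54% of the expected counts of all Trbv genes in replicates 1 to 6. The mean share was 98.2% ± 0.829. Of 35 Trbv genes, 24 had any counts, and the next, Trbv13-2, held 0.454% to 0.707%. The other Trbv genes summed to 166 to 224 TPM in replicates 1 to 5 and 394 TPM in replicate 6, the library with the lowest Trbv1 share. For the alpha chain, Trav12-3 (chr14:53621657-53622245) held 71.03, 70.30, 73.49, 69.90, 70.97 and 77.73% of Trav counts, with a mean of 72.2% ± 2.97 and the highest share in replicate 6. The alpha genes were more mixed than the beta genes: 123 of 128 Trav genes had counts, and Trav4-3, the next, held 3.43%. Trav genes come in near-identical copies between which reads can be split, so these shares are uncertain, and reads of the transgene cannot be told from those of the same segment at its own locus. None of the 78 J and D segments listed had counts. The constant region genes had 12781 to 16246 TPM (Trbc2), 4187 to 5289.9 TPM (Trbc1) and 1766 to 2195 TPM (Trac), while Trdc, the delta constant region that lies between the alpha V and J segments, had 185 to 254 TPM.

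**Figure D3:**
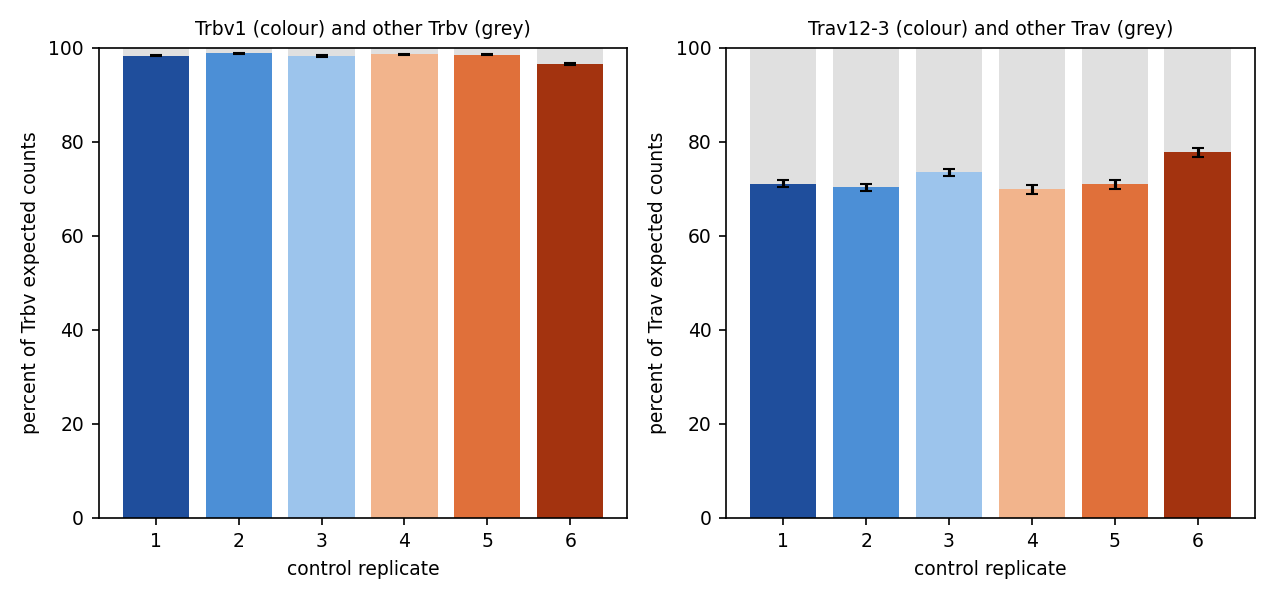
Percent of Trbv expected counts held by Trbv1 (left, colour) and of Trav expected counts held by Trav12-3 (right, colour) in each control library, with all other segments of the family in grey and 95% exact binomial intervals as error bars. Trbv1 held 96.54% to 98.85% and Trav12-3 69.90% to 77.73%, and replicate 6 has the lowest share of the first and the highest of the second.

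Transcription factors of the T lineage were on in nearly all cases, with 32 of 33 detected in every library and Foxp3, the regulatory T cell factor, the exception at 0.157 to 0.508 TPM. Tcf7, which encodes TCF-1 and is needed from the first T cell precursors onward, was at 2586, 2616, 2619, 2621, 2626 and 2377 TPM in replicates 1 to 6, with a mean of 2574 ± 97.7 and rank 26. It was 10.1 to 12.5 times its relative Lef1. Next in level were Satb1, Ets1 (1037 ± 33.5 TPM), Ikzf1 (Ikaros, 436 ± 15.6 TPM), Myb (398 ± 66.8 TPM) and Bcl11b, a guardian of T cell identity (318 ± 18.3 TPM). Gata3 was at 105 ± 5.93 TPM. The E protein gene Tcf12 (HEB) was 1.59 to 2.13 times Tcf3 (E2A), and Id3, an inhibitor of E proteins that TCR signals induce, was 6.78 to 9.61 times Id2.

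Factors that direct cells to the CD4 or CD8 lineage were low and uneven. Runx3, the factor of the CD8 lineage, had 22.5, 21.96, 18.8, 21.8, 25.05 and 46.1 TPM in replicates 1 to 6, and Runx1 was 1.40 to 4.24 times Runx3. Zbtb7b, which encodes ThPOK, the factor of the CD4 lineage, had 4.97, 2.27, 1.61, 2.33, 1.39 and 10.3 TPM. Replicate 6 was the highest for both, at 2.09 and 4.08 times the mean of the other 5. Without it Runx3 averaged 22.04 ± 2.22 and Zbtb7b 2.52 ± 1.43 TPM.

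In the BCL2 family, which decides survival or death of the cell, 16 of 20 genes were detected in every library. Of the protective members, Mcl1 was highest at 233 ± 19.6 TPM, Bcl2l1 (BCL-XL) had 82.9, 100.1, 104, 101, 104 and 58.8 TPM in replicates 1 to 6, and Bcl2 had 14.6 ± 1.61 TPM. Mcl1 was 2.01 to 4.33 times Bcl2l1, and Bcl2l1 was 3.41 to 8.11 times Bcl2, so the 3 genes had the same order in every library. Of the death-promoting members, Bcl2l11 (BIM), which is needed for negative selection, had 90.5, 97.1, 92.1, 116, 115 and 69.4 TPM and was 3.00 to 10.1 times Bbc3 (PUMA) at 10.4, 12.7, 9.11, 15.5, 12.4 and 23.1 TPM. Replicate 6 was the lowest for Bcl2l1 and Bcl2l11 and the highest for Bbc3, Mcl1 and Bcl2. The effectors Bak1 and Bax had 84.7 ± 9.73 and 56.6 ± 1.80 TPM. Without replicate 6 Bcl2 had 14.1 ± 1.06 and Bak1 81.2 ± 5.14 TPM. Hrk (0 to 0.0117 TPM) and Bok (0 to 0.249 TPM) were under 1 TPM in every library.

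All 16 NF-kB and IkB genes were detected in every library, and their median CV was 8.89%, near the 9.03% of all genes with a mean of 10 TPM or more. Among the DNA-binding subunits, Nfkb1 had 94.4, 93.5, 92.4, 96.1, 94.3 and 119 TPM in replicates 1 to 6, Rela 48.5 ± 1.07, Nfkb2 16.4 ± 1.02, Rel 13.4 ± 0.159 and Relb 9.39 ± 1.06 TPM. Replicate 6 was the highest for Nfkb1, while the 6 values of Rel lay within 13.3 to 13.7 TPM. Nfkbia, the main inhibitor that holds NF-kB in the cytoplasm, had 183 ± 17.01 TPM and was 5.53 to 7.29 times Nfkbid, which encodes the nuclear IkB protein named in the series title. Nfkbid had 27.2, 28.4, 26.2, 28.8, 33.3 and 29.8 TPM, a mean of 28.9 ± 2.46. The other nuclear members were Nfkbiz at 20.4 ± 2.15 and Bcl3 at 2.46 ± 0.594 TPM, the lowest of the list, and without replicate 6 they had 19.6 ± 0.952 and 2.26 ± 0.387 TPM.

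Among cytokine and chemokine receptors, 23 of 29 were detected in every library. The common gamma chain Il2rg had 578 ± 34.1 TPM, whereas Il7r, the receptor chain that double-positive cells switch off, had 2.04, 0.652, 0.735, 0.471, 0.658 and 0.629 TPM in replicates 1 to 6, above 1 TPM only in replicate 1. Ccr9 was 5.06 to 7.58 times Cxcr4 (194 ± 28.3 TPM, or 205 ± 12.7 without replicate 6). Ifngr1, the interferon gamma receptor, had 388, 428, 451, 469.6, 474 and 236 TPM, lowest in replicate 6. Cxcr3 and Ccr2, which guide effector cells and monocytes, were under 1 TPM in every library.

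Genes of maturation and of exit from the thymus were mostly present, with 26 of 30 detected in every library. Members that mark all stages of the lineage were high, such as Cd27 at 868 ± 57.7 and Cd52 at 561 ± 44.2 TPM. The activation marker Cd69 had 78.4 ± 9.83 TPM and Egr1, which TCR signals induce, 114 ± 11.9 TPM. The exit genes were low: Ccr7 had 19.1, 15.3, 12.2, 12.2, 12.1 and 21.4 TPM, S1pr1, the receptor that draws cells into blood, 8.62, 4.37, 4.22, 3.75, 3.16 and 15.7 TPM, and its activator Klf2 23.6, 19.7, 21.9, 18.9, 18.2 and 42.8 TPM. Replicate 6 was the highest library for each, at 3.25 times the mean of the others for S1pr1 and 2.09 times for Klf2. Gimap4, of a family of lymphocyte GTPases, had 81.96, 62.1, 59.9, 44.4, 50.4 and 177 TPM and was also highest there.

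All 40 proliferation genes were detected in every library, 14 of them at a mean of 100 TPM or more. Ccnd3, the D cyclin of the thymus, had 1011, 1182, 1199.8, 1443, 1578 and 783 TPM in replicates 1 to 6, 45.8 to 541 times Ccnd2, which had 5.05, 5.50, 12.2, 2.67, 7.84 and 17.1 TPM. Pcna, the DNA clamp, had 369 ± 41.3 TPM, Top2a 306 ± 48.1, Rrm2 175 ± 29.2 and Mki67 170.4 ± 26.5 TPM. Replicate 3 had the highest value of 27 of the 40 genes, for example 215 TPM of Mki67 against 137 to 183 in the others. Of the 7605 protein-coding genes outside X and Y with a mean of 10 TPM and 100 counts or more, 14.3% were highest in replicate 3. The inhibitor Cdkn1b had 149.8 ± 7.43 TPM and Cdkn1a 1.88 ± 0.443 TPM.

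Among genes of the earlier, double-negative stage, 13 of 25 were under 1 TPM in every library, a share near the 48.7% of all protein-coding genes. The progenitor factors Spi1 (0 to 0.654), Bcl11a (0.0104 to 0.203), Lmo2 (0.266 to 0.536) and Tal1 (0 to 0.0304 TPM) were all below that line, Gata2 was listed at 0 throughout, and the stem cell factor receptor Kit lay at 0.442 to 1.02 TPM. Il2ra, which marks cells just before the pre-TCR checkpoint, was at 4.82 ± 0.562 TPM. The 7 members detected in every library were Gzma (216 ± 36.8 TPM), Trdc (207 ± 25.1 TPM), Notch1 (37.2 ± 5.55 TPM), Cd44 (32.1 ± 3.798 TPM), Dtx1 (11.9 ± 6.73 TPM), Notch3 (10.4 ± 2.59 TPM) and Il2ra. Dtx1, a Notch target, had 25.5 TPM in replicate 6 and 7.39 to 10.9 TPM in the others. Without that library Notch1 had 35.1 ± 2.13 and Trdc 197 ± 10.5 TPM.

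Markers of other cells of the thymus were mostly low. Under 1 TPM in every library were 48.7% of all protein-coding genes and 66.7% of all listed genes, so the counts of these lists are given as a description. In the thymic epithelium list, 10 of 13 genes were under 1 TPM in every library, with Foxn1 and Cldn3 at 0, and the most abundant were Ccl25 (6.95 to 10.6 TPM) and Ly75 (5.51 to 8.12 TPM). In the macrophage list, 10 of 15 were under 1 TPM in every library, among them Adgre1 and Csf1r, and the highest mean was 5.24 TPM for Itgam. In the dendritic list, 11 of 14 were under 1 TPM, with Batf3 at 0 and Itgax at 0.0225 to 0.277 TPM, and Bst2, also an interferon response gene, was the highest at 15.3, 79.6, 15.4, 10.5, 11.8 and 11.1 TPM in replicates 1 to 6. In the stroma and endothelium list, 12 of 14 were under 1 TPM and Col3a1, Dcn and Lum were at 0. Pecam1 stood out from that list at 97.5 to 109 TPM, while the endothelial genes Cdh5 and Kdr did not exceed 0.0236 TPM.

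A few genes usually read as markers of other lymphocytes were abundant in every library. Ighm, the constant region of the antibody heavy chain, had 419.6 to 465 TPM, with the B cell markers Pax5 at 0 to 0.383 and Ms4a1 at 0.787 to 1.22 TPM. Of the 16 B cell genes, 8 were under 1 TPM in every library and 3 (Ighm, Cd79b and Ighd) above it in every library. Gzma, a protease of killer cells, had 271, 244, 205, 202, 207 and 166 TPM, beside Gzmb at 0 to 0.0467 and the NK receptor Ncr1 at 0 to 0.0904 TPM. The gamma constant regions were much lower than Ighm and Gzma. Tcrg-C2 and Tcrg-C4 had 9.00, 3.43, 3.42, 4.32, 4.00 and 17.8 and 14.7, 2.22, 2.65, 2.48, 2.21 and 17.8 TPM in replicates 1 to 6, highest in replicate 6 for both. Tcrg-C1 was highest in replicate 1, with a log2 difference from the median of the others of 2.91 there and 1.80 in replicate 6. Zbtb16, the factor of innate-like T cells, was at 0.0123 to 0.0716 TPM, and Il17a was listed at 0 in every library. Among helper, regulatory and effector genes Pdcd1 was the highest at 12.5 ± 1.94 TPM.

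Replicate 1 was the highest library for haemoglobin and MHC class II genes. Hba-a1 had 119, 4.54, 9.26, 7.98, 6.93 and 3.92 TPM and Hbb-bs 112, 7.63, 9.75, 7.99, 10.6 and 8.64 TPM in replicates 1 to 6. The haemoglobin genes summed to 384 TPM in replicate 1 and 20.7 to 29.5 TPM in the others. Alpha-globin copies share reads, and their split is uncertain. Cd74, the class II invariant chain, had 12.6, 4.04, 3.41, 2.31, 1.28 and 3.58 TPM, and H2-Aa 7.58, 1.60, 2.27, 1.76, 2.32 and 2.14 TPM. Ciita of the class II list (mean 0.197 TPM) and Klf1 of the erythroid list (0.0815 TPM) were highest in replicate 4. Epor of the erythroid list (0.182 TPM) was lowest in replicate 1. The erythroid membrane gene Slc4a1 was at 0 in every library, replicate 1 included. Markers of antigen-presenting cells were mixed. Replicate 1 was the highest library for Lyz2 (5.65 TPM, against 0.915 to 1.37 in the others), Csf1r, Adgre1, C1qc, Itgax and Sirpa. It was the lowest for Cd68 (3.08, 5.24, 4.66, 5.07, 5.55 and 6.55 TPM) and Zbtb46 (0.0592, 0.106, 0.0877, 0.123, 0.102 and 0.261 TPM). C1qa and Ctss were highest in replicate 2. The macrophage list summed to 27.1 TPM in replicate 1 and 26.8 TPM in replicate 2. Over 7605 protein-coding genes outside X and Y with a mean of 10 TPM and 100 counts or more, replicate 1 was over 2-fold higher than the median of the other 5 in 8 genes (0.105%) and over 2-fold lower in 2 (0.0263%). The mean of 10 TPM includes the library compared, so a gene can enter the set through 1 high library, as Hba-a1 did through replicate 1. Replicates 3, 4 and 5 stood apart least. Over 2-fold higher were 3 genes (0.0394%) in replicate 3, 0 in replicate 4 and 1 (0.0131%) in replicate 5, and over 2-fold lower were 1 (0.0131%), 7 (0.092%) and 4 (0.0526%). The heat shock genes Hspa1a and Hspa1b and the early response gene Jun were among the higher genes of replicate 3 and the lower ones of replicates 4 and 5. Hspa1a and Hspa1b were also over 2-fold higher in replicates 1 and 2 and over 2-fold lower in replicate 6. Jun was over 2-fold higher in replicate 6 as well. Plac8, lower in replicates 3, 4 and 5, had 43.3, 53.3, 19.1, 15.5, 12.4 and 63.2 TPM in replicates 1 to 6, highest in replicates 1, 2 and 6.

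Replicate 2 carried a higher level of type I interferon response genes, a programme that nearly all cells switch on when interferon reaches them. Of the same 7605 genes, 40 (0.526%) were over 2-fold higher in replicate 2 than the median of the others and 1 (0.0131%) was lower. Among the 20 interferon list members in that set, 15 were over 2-fold higher, and the median log2 difference was 1.76 against 0.0233 over all 7605 genes. Some of the 20 passed the minimum mean of 10 TPM only through replicate 2. Examples are Rtp4 (51.5 TPM there, 3.29 to 7.44 in the others) and Isg20 (43.6 TPM there, 6.04 to 8.53 in the others). The counts of 40 and 15 and the median are therefore partly set by that filter. The highest library was replicate 2 for 37 of the 38 members and for 17.9% of the 7605 genes. Ifit1, an antiviral RNA-binding protein, had 3.49, 43.6, 2.70, 1.43, 2.40 and 1.10 TPM in replicates 1 to 6. Isg15, a ubiquitin-like modifier, had 18.04, 119, 16.1, 14.9, 14.4 and 13.2 TPM. Replicate 2 lay above all others for both, at 19.6 and 7.76 times their mean. Irf7 and Usp18 stood at 4.94 and 6.80 times the mean of the others. The class I genes B2m and H2-K1 were at 802 and 109 TPM in replicate 2 against 458 to 547 and 47.5 to 67.1 TPM.

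**Figure D4:**
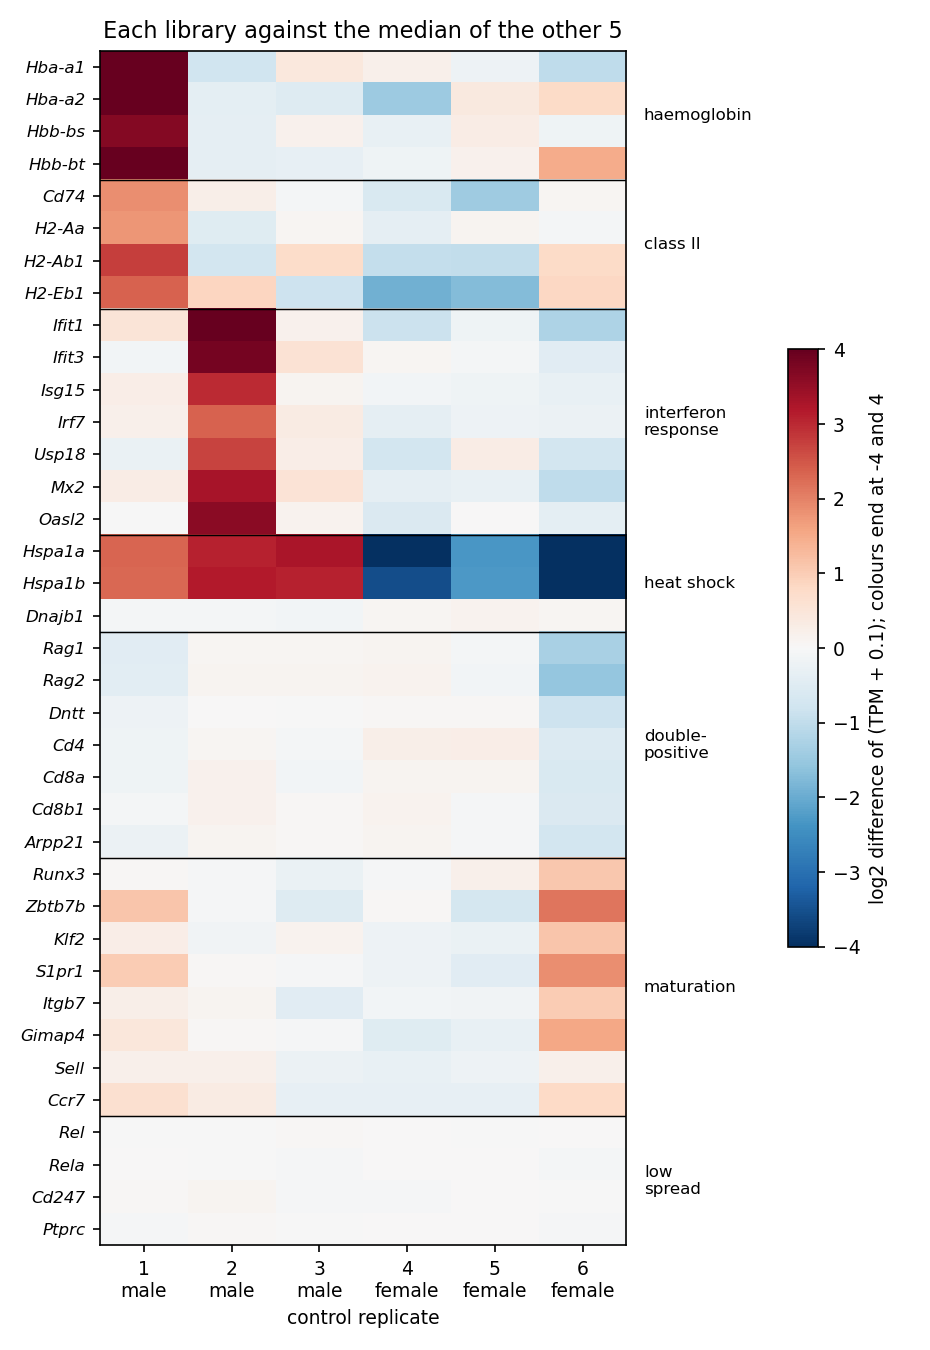
Log2 difference of (TPM + 0.1) between each control library (columns) and the median of the other 5, for named genes (rows) in blocks, with red for higher, blue for lower and colours ending at -4 and 4. The haemoglobin and class II blocks are red in replicate 1 and the interferon block in replicate 2, Hspa1a and Hspa1b are red in the males and blue in the females, and replicate 6 is blue in the double-positive block and red in most of the maturation block.

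Some promoters of members high in replicate 2 hold letters that interferon-activated factors are known to bind, and 3 of these are printed as examples. They are RefSeq promoters on build GRCm38.p6, the 150 bases before the gene start, 5′ to 3′ along the gene, with capitals for GAAANNGAAA on either strand (read as TTTCNNTTTC on the other).
Isg15 (chr4:156200819-156200968, minus strand): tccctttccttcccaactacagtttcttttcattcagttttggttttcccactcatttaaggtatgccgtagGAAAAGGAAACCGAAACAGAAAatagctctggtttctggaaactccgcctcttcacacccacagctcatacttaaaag
Ifit1 (chr19:34640739-34640888, plus strand): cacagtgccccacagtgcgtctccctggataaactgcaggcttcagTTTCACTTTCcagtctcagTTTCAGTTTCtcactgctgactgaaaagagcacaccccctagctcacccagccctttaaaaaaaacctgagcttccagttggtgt
Ifit3 (chr19:34583379-34583528, plus strand): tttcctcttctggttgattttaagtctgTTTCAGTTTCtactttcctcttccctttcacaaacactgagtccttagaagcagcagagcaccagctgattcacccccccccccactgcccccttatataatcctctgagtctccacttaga
Isg15 holds 3 overlapping matches and Ifit1 2. In the 250 bases before the start, a match on either strand occurred in 13 of the 27 interferon list members that have a table entry and in 3.07% of the 16348 protein-coding promoters. Of the 23 members over 2-fold higher in replicate 2, counted at any level, 11 held a match, while Irf7, Xaf1 and Isg20 were among those that held none. Of the 4 other members, 2 held a match, so a match did not set the higher members apart within the list. None of the 19 matched double-positive list members held one. A match describes the letters and says nothing of binding in these cells.

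Base composition was counted in the same promoters. The median number of CG dinucleotides in the 250 bases before the start was 10 over all 16348 promoters, 4 for genes below 1 TPM and 18 for those at 100 to 1000 TPM. The 19 double-positive list members with an entry had a median of 3, and 10 of them held fewer than 5. Fewer than 5 were held by 32.2% of all promoters, 56.1% of those below 1 TPM and 8.59% of those at 100 to 1000 TPM. Of the 19 members, 8 lay at 100 to 1000 TPM, and 4 of these held fewer than 5. Low medians were not particular to this list. The median was 3 for the granulocyte and mast cell list, 3.5 for the macrophage list and 4 for the maturation and interferon lists. It was 6 for the TCR complex and proximal signalling list. T-lineage transcription factors had a median of 18 over 27 promoters, and proliferation genes also 18. Rag1 and Cd8a are printed beside Eef1a1, an abundant gene of all cells, as examples of few and many CG, with each CG in capitals in the 150 bases before the start.
Rag1 (chr2:101649533-101649682, minus strand): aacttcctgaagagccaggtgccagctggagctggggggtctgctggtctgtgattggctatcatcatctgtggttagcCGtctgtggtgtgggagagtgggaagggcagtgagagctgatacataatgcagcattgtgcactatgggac
Cd8a (chr6:71373277-71373426, plus strand): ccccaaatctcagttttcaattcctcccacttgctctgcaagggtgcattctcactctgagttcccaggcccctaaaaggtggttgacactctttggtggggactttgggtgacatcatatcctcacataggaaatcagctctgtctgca
Eef1a1 (chr9:78481725-78481874, minus strand): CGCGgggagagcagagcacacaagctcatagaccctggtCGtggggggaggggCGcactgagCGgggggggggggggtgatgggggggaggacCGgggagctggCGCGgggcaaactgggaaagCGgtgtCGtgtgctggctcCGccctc
Cd8a has 0 and Rag1 has 1 in this window, and Eef1a1 has 11.

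Beyond the genes of the stage itself, replicate 6 differed in other messages. Of the 7605 genes, 24 (0.316%) were over 2-fold higher and 17 (0.224%) over 2-fold lower than the median of the others, and 5276 (69.4%) were below it by any amount. Among the 23 double-positive list members in that set, 21 were below the median of the others, 2 (Rag1 and Rag2) by over 2-fold, with a median log2 difference of -0.52 against -0.09 over all 7605. Among the 21 maturation list members 4 were over 2-fold higher in replicate 6, against 0 or 1 in each other library. Their median log2 difference did not set replicate 6 apart: it was 0.19 there, with 13 members above the median of the others, 0.19 in replicate 1, with 16 above, and 0.12 in replicate 2, with 19 above. Itgb7, an integrin chain of gut-homing cells, had 73.1, 66.2, 47.96, 61.6, 60.5 and 124 TPM in replicates 1 to 6. Cpt1a, of fatty acid oxidation, had 20.1, 11.3, 14.9, 9.98, 14.5 and 63.2 TPM, P2rx7, an ATP receptor, 31.6, 28.1, 26.1, 27.4, 29.2 and 82.5 TPM and Cd163l1 57.5, 37.8, 40.1, 39.3, 46.8 and 148 TPM. Replicate 6 lay above all others for each of these. The early response gene Junb had 169 TPM there against 70.03 to 95.4 TPM, and Dusp1 70.8 against 28.5 to 35.7 TPM. The part of ribosomal RNA content and of other cells in these values was not tested.

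Spread between mice was small for most genes. The median CV was 9.03% over the 8906 genes with a mean of 10 TPM or more, and the 10th and 90th percentiles were 4.46% and 20.3%. It was smaller at higher levels, with 18.9% for protein-coding genes at 1 to 10 TPM and 5.82% for the 78 at 1000 TPM or more. The median CV of the interferon list was 111% with all 6 libraries and 17.8% without replicate 2, and that of the double-positive list 15.9% with all 6 and 9.16% without replicate 6. The 12 genes with the largest spread included the sex-linked Xist, Gm27927 (which lies inside Xist), Eif2s3y and Ddx3y, while the other 8, such as Snord87, Snord14e and Mir3971, had means under 5 counts. The 12 with the smallest spread included Rel, Ppm1a, Psmd8, Pfn1, Pcbp2, Arhgdib and Iqgap1. Pfn1, profilin, was also abundant, at 2088 to 2167 TPM, and Arhgdib lay at 1128 to 1162 TPM.

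**Figure D5:**
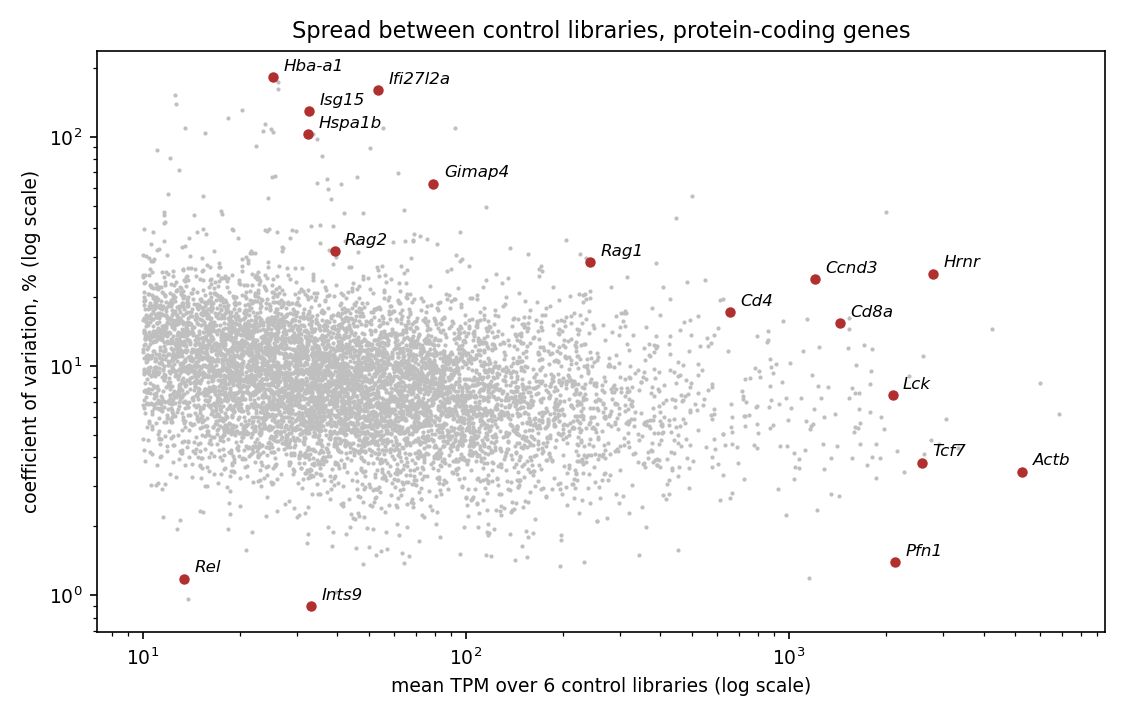
CV of TPM over the 6 control libraries (vertical, percent, log scale) against mean TPM (horizontal, log scale) for protein-coding genes, in grey, with named genes in red. The genes in grey have a mean of 10 TPM or more and of 100 counts or more. Hba-a1, Ifi27l2a, Isg15 and Hspa1b lie at the top of the cloud, Rag1, Rag2, Cd4 and Cd8a in its upper part, and Rel, Ints9 and Pfn1 at its lower edge.

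The levels of 18 pairs of related genes were compared within each library. In all 18 the same gene was the higher in 6 of 6 libraries, and each gave p = 0.03125 by an exact two-sided sign-flip permutation test of the log2 TPM ratio, the smallest p that 6 libraries allow and 0.03125 also after Benjamini-Hochberg adjustment over the pairs. The pairs were set with earlier results of these data known, so these p-values describe the agreement between libraries and are no independent test of the order. The ratio of Ccnd3 to Ccnd2 spanned 45.8 to 541. Cd3g over Cd3e was the closest to equal, and with expected counts, which are not per length, its direction reversed.

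Sex was the only labelled factor within the group. Of 14350 genes tested with edgeR's quasi-likelihood test, 91 (0.634%) passed an adjusted p of 0.05, 61 (0.425%) higher in males and 30 (0.209%) higher in females, and 77 of the 91 lay outside X and Y. The Y-linked Ddx3y, an RNA helicase, had 106, 113, 114, 0, 0 and 0 TPM in replicates 1 to 6 and Eif2s3y, a translation factor, 174, 192, 188, 0, 0 and 0 TPM. Both were at 0 in all females, as was the Y-linked Gm29650. Kdm5d and Uty, whose X-linked copies share sequence with them, were higher in males by 5.16 (SE 0.09, edgeR adjusted p = 3.2e-08) and 5.46 (SE 0.16, edgeR adjusted p = 4.1e-06) on the log2 scale. Xist, the RNA that silences an X chromosome, had 0.247, 0.233, 0.331, 460.1, 526 and 353 TPM and separated the sexes as labelled.

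Of the other genes, Zfp36l2, an RNA-binding protein that promotes mRNA decay, had 148, 133, 136, 256, 289.8 and 263 TPM in replicates 1 to 6 and was lower in 3 of 3 males than in any female (log2 difference, male minus female, -0.96, SE 0.07, edgeR adjusted p = 0.00077). Vamp2, of vesicle fusion, had 104, 107, 108, 163, 179 and 147 TPM (log2 difference -0.60, SE 0.06, edgeR adjusted p = 0.0045). Kdm6a, an X-linked histone demethylase known to escape X silencing, had 33.8, 37.5, 35.7, 52.7, 55.5 and 50.7 TPM (log2 difference -0.58, SE 0.05, edgeR adjusted p = 0.0023). Among list genes, Cd28, a costimulatory receptor, was higher in males with 238, 243, 241, 204, 202 and 178 TPM (log2 difference 0.31, SE 0.05, edgeR adjusted p = 0.0456). Tnfaip3, the NF-kB inhibitor A20, was lower in males with 55.9, 57.5, 61.1, 75.03, 77.7 and 74.8 TPM (log2 difference -0.35, SE 0.05, edgeR adjusted p = 0.0300), as was Bcl2l2 with 3.54, 3.56, 2.93, 5.28, 5.06 and 5.51 TPM (log2 difference -0.79, SE 0.12, edgeR adjusted p = 0.0417). These 3 calls were lost when any 1 of replicates 1 to 5 was left out. Hspa1a, a heat shock protein gene whose near-identical copy is Hspa1b, had 18.8, 32.2, 36.8, 0.873, 3.70 and 0.784 TPM and missed the threshold (log2 difference 4.04, SE 0.63, edgeR adjusted p = 0.0753). The count of calls depended on the libraries used: it was 486 without replicate 6 and between 15 and 36 without any other single library. With sex and depth coinciding, no difference outside X and Y can be told apart from one of sequencing depth.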

How the data were processed

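Total RNA of sorted CD4+CD8+ thymocytes, with an RNA integrity number over 9, went into stranded KAPA libraries, per the labels' protocols. Reads were processed with Bowtie 1.0.0, SAMtools 0.1.18 and edgeR 3.24.3 on GRCm38, per the submitters' processing notes, and no source used here names the counting program. The authors deposited 46517 identifiers per library, each with a TPM value and an expected count, of which 46005 matched a symbol in a GENCODE annotation of GRCm38, and the rest held 0.165% of the counts. The deposited TPM values gave levels, ranks and CVs, since they are per length. They depend on each library's own total, so that ribosomal RNA in a library lowers all other TPM values in it.

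For the male and female groups, whole-number (rounded) expected counts went into edgeR 4.0.16 under R 4.3.3 (TMM scaling, filter on expression, robust quasi-likelihood fit, two-sided, 4 residual degrees of freedom, Benjamini-Hochberg adjustment over 14350 genes, threshold 0.05). The SE of a log2 difference is its size divided by the root of the F statistic. The code was tested on simulated data. No 2 libraries were duplicates (chi-square per degree of freedom 4.55 to 79.7). Binomial intervals cover counting error only. Alternatives were DESeq2 1.42.0, limma-voom (limma 3.58.1), RLE size factors, other filters and thresholds, CPM in place of TPM, and leaving out libraries.

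The libraries were selected by title. That selection, the gene pairs and the 23 gene lists (461 of 464 entries matched) were set with earlier results of these data known. Genes named in the text are key members of these lists, the 15 with the highest mean TPM, the 12 with the largest and the 12 with the smallest spread, and the 5 with the smallest p in each direction between sexes. The genes compared for flagging also included the most abundant and the most variable protein-coding genes, by rules added to the planned ones. List members outside this rule, the genes named as high in replicate 6 (Cpt1a, P2rx7, Cd163l1) and the class I genes were picked after their values were seen. A few individual genes were left out of the text.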

Additional observations from a re-analysis of the deposited data

Results flagged for a closer look

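A library is listed here where, for a named gene or a summed list, it lay so far beyond the other 5 that the gap to its neighbour exceeded the 95% critical value of Dixon's test. Of 209 values compared, 51 (24.4%) were marked, 14 in replicate 1, 16 in replicate 2, 1 in replicate 4, 20 in replicate 6 and none in replicates 3 and 5. Chance alone would mark about 1 in 20 values of genes picked without regard to spread. The genes compared included some picked for a large spread in these same 6 libraries, so the share marked cannot be set against chance. Genes of a list vary together, so these are not independent. The causes were not tested.

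Replicate 1 was the highest library for the following genes: Hba-a1 at 119.0, Hba-a2 at 119.2, Hbb-bs at 112.2, Alas2 at 2.28, Cd74 at 12.6, H2-Aa at 7.58, H2-Ab1 at 5.87, H2-Eb1 at 5.62, Igkc at 9.82, Lyz2 at 5.65 and Il7r at 2.04 TPM. The summed lists that stood apart there were erythroid, class II, and granulocyte and mast cell. Erythroid summed to 386.1 TPM against 22.0 to 30.5 in the others, with 383.5 TPM from haemoglobin genes. Class II summed to 31.9 against 4.89 to 9.14 TPM, and granulocyte and mast cell to 7.69 against 0.394 to 1.07 TPM. In the last list Cpa3 had the highest mean (1.15 TPM), and its log2 difference from the median of the others in replicate 1 was 5.17. Ngp and Camp lay below the median of the others there (-0.84 and -1.20), and S100a8 and S100a9 above it (3.16 and 3.31). Elane, Ltf, Mcpt8 and Retnlg were at 0 in all libraries.

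Replicate 2 was the highest for interferon response genes, with the summed list at 2366 TPM against 690.3 to 829.7 in the others. Its marked members were Ifi27l2a at 227.2, Isg15 at 119.0, Irf7 at 103.1, Xaf1 at 79.8, Bst2 at 79.6, Usp18 at 63.5, Rtp4 at 51.5, Isg20 at 43.6, Ifit1 at 43.6 and Ifit3 at 23.6 TPM. Outside the list the interferon-induced GTPases Gbp6 (79.1), Tgtp1 (48.4) and Tgtp2 (74.2 TPM) stood apart in the same library. The dendritic list summed to 91.2 TPM there, of which Bst2, an interferon response gene, is the largest part. Satb1 at 1419 TPM was also highest in replicate 2, by a small margin over 1347 TPM. In replicate 4 the only one was Surf4 at 145.4 against 140.1 to 141.2 TPM, a gene of very small spread.

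Replicate 6 was the highest for Junb at 169.0, Itgb7 at 123.7, Nfkb1 at 119.0, Fyn at 187.1, Ier2 at 72.5, Dusp1 at 70.8, Ppp1r15a at 66.5, Notch1 at 47.9, Runx3 at 46.1, Klf2 at 42.8 and Dtx1 at 25.5 TPM, and for the pseudogene Gm3788 at 11030 TPM. It was the lowest for Tcf7 at 2377, Thy1 at 1449, Cd8b1 at 670.8, Cd3e at 627.1, Dntt at 388.0, Ifngr1 at 236.2 and Nfkbie at 21.7 TPM. Its share of Trbv1 among Trbv counts, 96.5%, was also the lowest, against 98.25% to 98.85% in the others.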

How the results depend on the processing

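With expected counts, which are not per length, in place of TPM, the log2 ratio of Cd3g to Cd3e was -0.40 in place of 0.22, and 13 of the other pairs moved by more than their SD over libraries without a change of direction. Among these, Bcl2l1 to Bcl2 went from 2.62 to 0.82, Rag1 to Rag2 from 2.65 to 4.30, Nfkb1 to Rel from 2.86 to 1.42, Bcl2l11 to Bbc3 from 2.84 to 4.01 and Ccr9 to Cxcr4 from 2.54 to 3.58. Ranks depend on which genes are counted: over protein-coding genes alone Cd8a ranked 46, Cd8b1 83 and Cd4 130, and by CPM, which is not per length, Cd8a 15, Cd4 73, Rag1 79 and Cd8b1 106 (by TPM 84, 141, 211 and 635 for Cd8a, Cd8b1, Cd4 and Rag1). The median CV of 9.03% was 7.75% by CPM, 12.2% with genes from 1 TPM, 7.67% to 9.19% with 1 library left out and 7.24% without replicates 1, 2 and 6, an alternative chosen after seeing the data. The median SD of log2 values (0.131) was 0.111, 0.175, 0.111 to 0.133 and 0.104 under the same settings. The median CV without replicate 2 for the interferon list (17.8%) and without replicate 6 for the double-positive list (9.16%) were also added after seeing the data. By TPM, Trav12-3 held 67.2% of its family. With genes from 1 TPM, the genes over 2-fold higher numbered 63 in replicate 2 and 47 in replicate 6, and those lower in replicate 6 numbered 34 (11 by CPM). In replicate 1 they numbered 5 to 9 with another library left out.

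Between males and females, 91 genes were called by edgeR. The count was 382 with no filter, 48 by limma-voom, 558 by DESeq2 and 15 against a fold of 1.2. It was 15 to 486 with 1 library left out, and 684 without replicates 2 and 6 (chosen after seeing the data). An unadjusted p under 0.05 was held by 2613 genes. No paired analysis was possible because males carry replicate numbers 1 to 3 and females 4 to 6, so the groups share no number. Depth limits the low end: a gene of few counts reaches 1 TPM only by its short length.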
